A study of Mus musculus with 6 samples.

Results

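The transcriptome of wild-type mouse bone marrow neutrophils was described from the 3 libraries labelled WT, out of 6 in the series. All 51789 genes of the deposited count table were used. The 3 columns were chosen by their label alone, without regard to any measured value. Bone marrow cells were selected on Ly6G, a surface antigen of mouse neutrophils, with beads, at a purity above 95% according to the labels. Libraries were made from polyadenylated RNA with the QuantSeq kit of Lexogen, in which each transcript gives a tag near its 3′ end. The WT libraries carry the label control for Snph, which encodes syntaphilin, an anchor of mitochondria on microtubules; the other libraries of the series were not analysed here. The sources used here give no strain, age or treatment of the mice, and nothing says that the 3 samples came from separate animals. The spread between libraries may therefore be technical.

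Neutrophils are short-lived phagocytes that leave the bone marrow filled with granules. The granule classes are filled one after the other while the cell matures: azurophil (primary) granules with myeloperoxidase and serine proteases in promyelocytes, specific (secondary) granules with lactoferrin and cathelicidin in myelocytes and metamyelocytes, and gelatinase (tertiary) granules and secretory vesicles in band and segmented cells. The messenger RNA of a granule protein is largely made during the stage at which that granule forms. Mature cells draw on glycolysis, glycogen and an NADPH oxidase more than on mitochondrial respiration.

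The libraries held 7894986, 9664381 and 7018388 counts (WT 1, 2 and 3, the order used for every set of 3 values below). Levels are given as CPM, the counts in each 1000000 counts of a library, as mean ± SD over n = 3 libraries, and ranks are positions by mean CPM among all genes. At these depths 1 count was worth 0.127, 0.103 and 0.142 CPM. At least 1 CPM in all 3 libraries was reached by 9956 genes, 19.2% of the table, and 33682 genes (65.0%) had no count in any library. Among the 21780 protein-coding genes the same shares were 41.9% and 37.4%. Because a transcript gives about 1 tag whatever its length, levels of different genes were compared as tags without dividing by length. The median level of protein-coding genes of at least 1 CPM was 13.3 CPM for the 25% with the shortest exonic length and 17.5 CPM for the 25% with the longest, and ranks after division by exonic length are given for the pairs and leading genes whose order is described.

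All 5 markers of the cell type were abundant. S100a8 and S100a9, the subunits of the antimicrobial protein calprotectin, were the first and the second gene of the table. S100a8 (chromosome 3, 90668978 to 90670035 on the plus strand, GRCm38) had 119428, 124364 and 115805 CPM (119866 ± 4296), and S100a9 (chromosome 3, 90692632 to 90695721 on the minus strand) had 100820, 103589 and 101895 CPM (102101 ± 1396). Their ranges did not overlap, and S100a8 lay 1.17 ± 0.0333 times above S100a9 in tags; per exonic length the order was turned, with S100a9 first and S100a8 second. Retnlg, a resistin-like secreted protein of neutrophils, ranked 7 with 12818, 13332 and 12771 CPM. Ly6g, the protein used for the selection, ranked 80 with 1159, 1100 and 986 CPM, and Cxcr2, the receptor for neutrophil-attracting CXC chemokines, ranked 310 with 357, 367 and 398 CPM. In a bulk sample fewer cells of a type and less RNA per cell cannot be told apart.

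A few genes carried a large part of the RNA. The most abundant gene held 11.99% ± 0.430 of the counts, the first 10 genes held 36.1% ± 0.644, the first 100 held 51.4% ± 0.871 and the first 1000 held 77.1% ± 0.509. To reach 50% of counts took 84, 78 and 95 genes, and 87, 91 and 85 genes stood at 1000 CPM or above. Protein-coding genes held 97.8% ± 0.0442 of all counts and long intergenic non-coding RNAs 0.798%. Chromosome 3, which carries the S100a cluster, held 25.6% ± 0.524. The plot of cumulative share against gene rank shows how closely the 3 libraries follow each other.

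**Figure D1:**
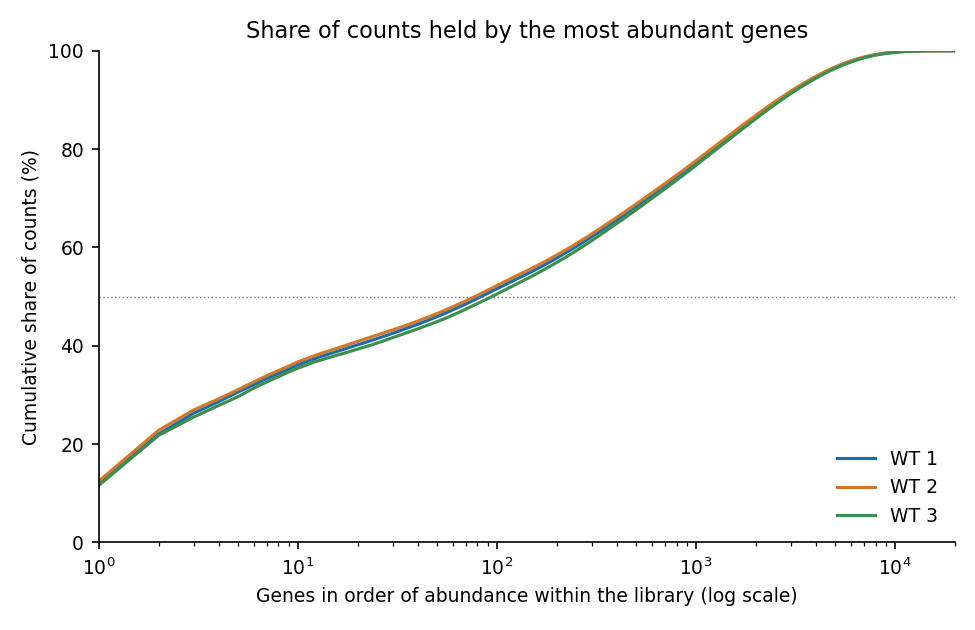
Cumulative share of counts (vertical axis, percent) against the number of genes taken in order of abundance (horizontal axis, log scale), 1 line per WT library. The lines run together and pass 50% of counts between 78 and 95 genes.

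The 25 most abundant genes were granule proteins, S100 proteins, actin-related genes and a small set of others. After the calprotectin genes came Actb, cytoplasmic actin, with 42659, 41416 and 37258 CPM (40444 ± 2828). Next came Ngp, a cathelin-like granule protein, with 23248, 22452 and 23492 CPM, and Lyz2, lysozyme, with 19520, 18648 and 17817 CPM. Camp, the cathelicidin precursor, had 14963, 15565 and 17407 CPM. Ltf, lactoferrin, had 10301, 10082 and 9710 CPM, and Tmsb4x, the actin-monomer binder thymosin beta 4, had 8731, 9159 and 10580 CPM. Ltf and Tmsb4x overlapped and exchanged places in 1 library. Lcn2, the siderophore-binding lipocalin, followed at 8624, 8511 and 7520 CPM. The metalloproteinases Mmp9 (6408, 6263 and 6253 CPM) and Mmp8 (5389, 5464 and 5944 CPM) were 11th and 12th, and their ranges did not overlap. Per exonic length the order differed: S100a9 and S100a8 were followed by Retnlg (rank 3), Camp (4), Ngp (5), Actb (6) and Lyz2 (7), and Mmp8 (18) stood above Mmp9 (24).

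Ranks 13 to 25 were held by S100a6, Actg1, Ftl1 (ferritin light chain), Ifitm6, Gnai2 (the G protein subunit that couples chemoattractant receptors), Wfdc21, Gm42418, S100a11, Lcp1 (the actin bundler plastin), Cd52, Slpi (a protease inhibitor), Cybb and Arpc1b. These 13 genes lay between 2370 and 4786 CPM. Per exonic length Lcp1, Cybb and Arpc1b ranked 138, 98 and 88. Gm42418 is a locus annotated as a lincRNA whose exons overlap other genes, and it had 3514, 3550 and 2615 CPM. Of the 24 neighbouring pairs in this order, 15 kept their order in all 3 libraries and 13 had ranges that did not overlap. Exons of 7 of the 25 genes overlap another gene, and since the sources used here do not give the strand setting of the counting, their counts may hold reads of that gene.

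**Figure D2:**
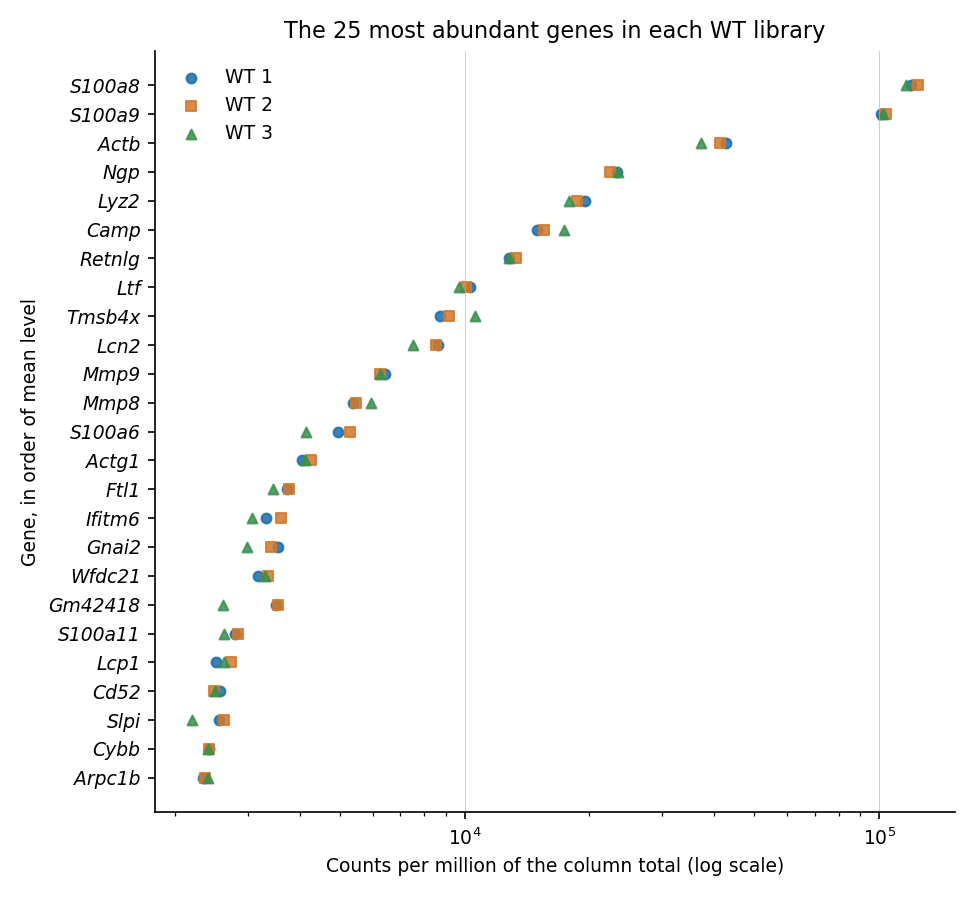
Level of the 25 most abundant genes in CPM (horizontal axis, log scale), with 1 marker per WT library. S100a8 and S100a9 lie at or above 100820 CPM in every library, and the points of Gm42418 spread from 2615 to 3550 CPM.

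The S100 family was uneven. S100a6 had 4944, 5277 and 4137 CPM and S100a11 had 2791, 2842 and 2621 CPM, whereas S100a13 (71.9 ± 6.21 CPM), S100a1 (15.4 ± 2.06), S100a4 (4.11 ± 0.299) and S100a10 (3.61 ± 0.0989) were far lower and S100a5 had no count. These other family members were chosen after their values were seen. Stefins, intracellular inhibitors of cysteine proteases, were led by Stfa2l1 (74.0 ± 12.9 CPM) and Stfa1 (67.8 ± 7.99), which have near-identical copies, so their counts are uncertain; both were named after their values were seen.

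The 76 genes of the granule lists held 35.2% ± 0.546 of the counts, including 20 of the 100 most abundant genes. Among them are the 10 genes of the calprotectin and stefin list, which held 23.0% ± 0.600 and 4 of those 100 genes. That list lies outside the granule classes compared below. At least 1 CPM in all 3 libraries was reached by 67 of the 76 (88.2%). The share was 19.2% over the whole table and 41.9% over protein-coding genes. Of the 76, 40 were among the 1000 most abundant genes, a group that holds 1.93% of the table. The granule classes differed. Specific granule genes summed to 77455, 76823 and 79202 CPM, gelatinase granule and secretory vesicle genes to 23327, 23738 and 23060 CPM, and azurophil granule genes to 21743, 20860 and 20109 CPM. The specific granule sum was the highest in every library, and the other 2 sums did not overlap. With 3 libraries a paired exact test cannot go below p = 0.25, so no test was run. The 27 specific, 21 gelatinase and 18 azurophil genes had 12, 3 and 1 member among the 100 most abundant.

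Azurophil granule transcripts were almost entirely Lyz2, which held 89.3% of the class sum and whose protein is also stored in later granules. Without it the class summed to 2243 CPM, led by Serpinb1a (532 ± 25.3 CPM), an inhibitor of neutrophil proteases, Srgn (473 ± 63.2), the proteoglycan that packs granule proteins, and Cd63 (442 ± 30.5), a granule membrane protein. The hallmark azurophil enzymes, named after their values were seen, were low. Mpo, myeloperoxidase, had 36.6, 25.7 and 33.8 CPM (rank 3370). Prtn3, proteinase 3, had 8.74, 7.86 and 7.12 CPM. Ctsg, cathepsin G, had 4.56, 2.79 and 2.56 CPM, and Elane, neutrophil elastase, had 1.65, 2.79 and 3.85 CPM (rank 8842). Together these 4 enzymes made up 46.0 ± 6.32 CPM, against 57291 ± 772 CPM for Ngp, Camp, Ltf and Lcn2. The ratio of the specific to the azurophil quartet was 1108, 1447 and 1229. Bpi, the bactericidal permeability-increasing protein, had no count in any library. Proliferation markers were measured beside this: Top2a had 39.7 ± 4.11 CPM and Mki67 37.6 ± 6.63 CPM, both named after their values were seen.

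Specific granule genes were nearly all present, 24 of 27 at 1 CPM or more in every library, and 22 at 100 CPM or more. Below Ngp, Camp, Ltf, Lcn2 and Mmp8 stood Cybb (2417, 2420 and 2409 CPM), the membrane catalytic subunit of the NADPH oxidase, and Chil3 (2361, 2071 and 2309 CPM), a chitinase-like protein. Cd177, a surface protein of neutrophils, had 1381, 1473 and 1190 CPM, and the integrin chains Itgb2 (CD18) and Itgam (CD11b) had 1072 ± 44.1 and 519 ± 39.1 CPM. Ptx3, a long pentraxin stored in specific granules, and Bpifa2 had no count, and Olfm4, which marks a subset of neutrophils, had 0.566 ± 0.0572 CPM. Chil3, Cd177, Itgb2, Itgam and Olfm4 were named after their values were seen in this list.

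In the gelatinase and secretory vesicle class Retnlg and Mmp9 (gelatinase B) were followed by Fpr2, a formyl peptide receptor, with 1459, 1459 and 1343 CPM, and Adam8, a sheddase, with 520, 534 and 548 CPM. Fcgr3, a low-affinity Fc receptor, came next with 514, 522 and 552 CPM. Mmp9 lay 1.13 ± 0.0701 times above Mmp8 in tags and below it per exonic length. No count was found for Arg1 (arginase 1), Alpl (alkaline phosphatase) or Mme (neprilysin), all listed for this class from human neutrophils, and Anpep (aminopeptidase N), named after its values were seen, had 0.637 ± 0.455 CPM. The floor of 3 counts over the 3 libraries is 0.122 CPM and covers counting error only.

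Promoter sequence was read for granule genes because members of these lists stand together among the most abundant transcripts. RefSeq promoters (GRCm38.p6, 250 bases before to 50 after the start) matched 63 of the 76 genes of these lists, calprotectin and stefin genes included. The hexamer GAGGAA, the core of PU.1-type sites, searched on both strands and with overlaps to other motifs allowed, was in 35 of the 63 (55.6%), against 20 of 77 (26%) for the 100 most abundant genes, 2097 of 7583 (27.7%) for genes of at least 1 CPM in all 3 libraries and 5596 of 20177 (27.7%) for all promoters. The TATA box TATAAA was in 20.6%, 24.7%, 6.70% and 13.1% of these sets, and the C/EBP-like TTGCNNAA in 20.6%, 19.5%, 8.23% and 10.3%. A match describes the letters only, and the granule lists were not compared with sets matched for composition. Shown here are the 100 bases before the RefSeq start of the azurophil gene Cd63, chr10:128909245-128909344 on the plus strand, the specific granule gene Itgam, chr7:128062540-128062639 on the plus strand, and the secretory vesicle genes Fpr2, chr17:17887724-17887823 on the plus strand, and Fcgr3, chr1:171059404-171059503 on the minus strand. They are 4 genes from 3 granule classes with such a match close to the start, at ranks 50 to 244. Genes without a matched promoter, without a match in these 100 bases or with an annotated exon there were passed over. Among those passed over were Lyz2, Ngp, Camp, Ltf, Retnlg and Mmp9. The stretches are written 5′ to 3′ on the gene's strand, with GAGGAA or its reverse complement TTCCTC in capitals.
Cd63: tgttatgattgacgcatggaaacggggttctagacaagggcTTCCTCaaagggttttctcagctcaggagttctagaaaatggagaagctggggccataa
Itgam: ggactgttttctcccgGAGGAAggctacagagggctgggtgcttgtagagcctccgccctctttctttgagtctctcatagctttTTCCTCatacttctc
Fpr2: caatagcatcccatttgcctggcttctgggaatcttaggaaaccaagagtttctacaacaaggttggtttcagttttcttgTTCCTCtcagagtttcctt
Fcgr3: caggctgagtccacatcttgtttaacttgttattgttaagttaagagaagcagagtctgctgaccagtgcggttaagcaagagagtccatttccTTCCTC
The capitals begin 59 bases before the start in Cd63, 84 and 15 bases before it in Itgam, 19 bases before it in Fpr2 and 6 bases before it in Fcgr3. The direction is GAGGAA once, in Itgam, and TTCCTC elsewhere.

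Receptors held a smaller share of counts than the granule lists, of whose 35.2% the calprotectin and stefin list held 23.0%. The median receptor gene stood at 78.2 CPM, against 194 CPM for the granule lists. Some genes, among them Fpr2, Fcgr3, Cd177 and Itgb2, are in lists of both groups. The 119 receptor and adhesion genes held 2.58% ± 0.00854 of counts, and 7 were among the 100 most abundant genes. In all libraries 103 (86.6%) reached 1 CPM, against 19.2% of the table and 41.9% of protein-coding genes. Among chemoattractant receptors, which steer neutrophils along gradients of bacterial peptides, lipids and chemokines, 16 of 23 reached that level. Fpr2 was first, 5.12 ± 0.0819 times Fpr1, the other main formyl peptide receptor, which had 285, 280 and 266 CPM. An exon of Fpr2 overlaps Fpr3 on the same strand, and Fpr3, Fpr-rs3 and Fpr-rs4 had no count. Cxcr2, for release from marrow and recruitment, and Cxcr4, the receptor for CXCL12 that retains neutrophils in marrow (298, 311 and 367 CPM), overlapped in range, and Cxcr2 was the higher in each library, 1.15 ± 0.0616 times Cxcr4 in tags; per exonic length their ranks were 350 and 229. The leukotriene B4 receptor Ltb4r1 (246 ± 15.2 CPM), the complement C5a receptor C5ar1 (242 ± 10.3) and the chemokine receptor Ccr1 (236 ± 7.79) overlapped in range. Cxcr1, the paralog of Cxcr2, had 3.67, 1.76 and 5.41 CPM. Ltb4r1, C5ar1, Ccr1 and Cxcr1 were named after their values were seen, and Ltb4r2 and Adora2a had 3 counts and 1 count over the libraries.

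Cytokine receptors (26 of 30 at 1 CPM or more in all libraries) were led by Il17ra, a chain of the interleukin 17 receptor, with 566, 540 and 494 CPM. Tnfrsf1a, a receptor for tumour necrosis factor, had 347 ± 31.4 CPM and Csf2rb, the shared beta chain of the GM-CSF receptor, had 338 ± 28.2 CPM. Csf3r, the receptor for G-CSF, the main growth factor of granulocytes, had 278, 262 and 321 CPM. Csf2rb was above Csf3r in tags in 2 of 3 libraries, and their ranges overlapped; per exonic length their ranks were 855 and 533. Il5ra, the eosinophil growth factor receptor, had no count.

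Pattern recognition, Fc and paired receptors (38 of 42) were led by Fcer1g, the signalling chain shared by Fc receptors, with 1729, 1670 and 1674 CPM, then the sialic acid-binding Cd33 (741 ± 37.1 CPM), the inhibitory Lilrb4a (566 ± 37.4) and Fcgr3. Toll-like receptors, chosen after their values were seen, were lower: Tlr13, a sensor of bacterial ribosomal RNA, had 71.8 ± 0.540 CPM, Tlr2 61.8 ± 8.84 CPM and Tlr4, the endotoxin receptor, 24.8 ± 4.05 CPM. Tlr8 had 4 counts in all, and Tlr9, the sensor of unmethylated DNA, had none.

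Adhesion genes (23 of 24) included Ly6c2, also a marker of monocytes, with 1397, 1518 and 1352 CPM, then Cd177, Ly6g and Itgb2. Cd24a (989 ± 74.8 CPM), the hyaluronan receptor Cd44 (843 ± 54.6) and the selectin ligand Selplg (645 ± 22) were named after their values were seen.

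**Figure D3:**
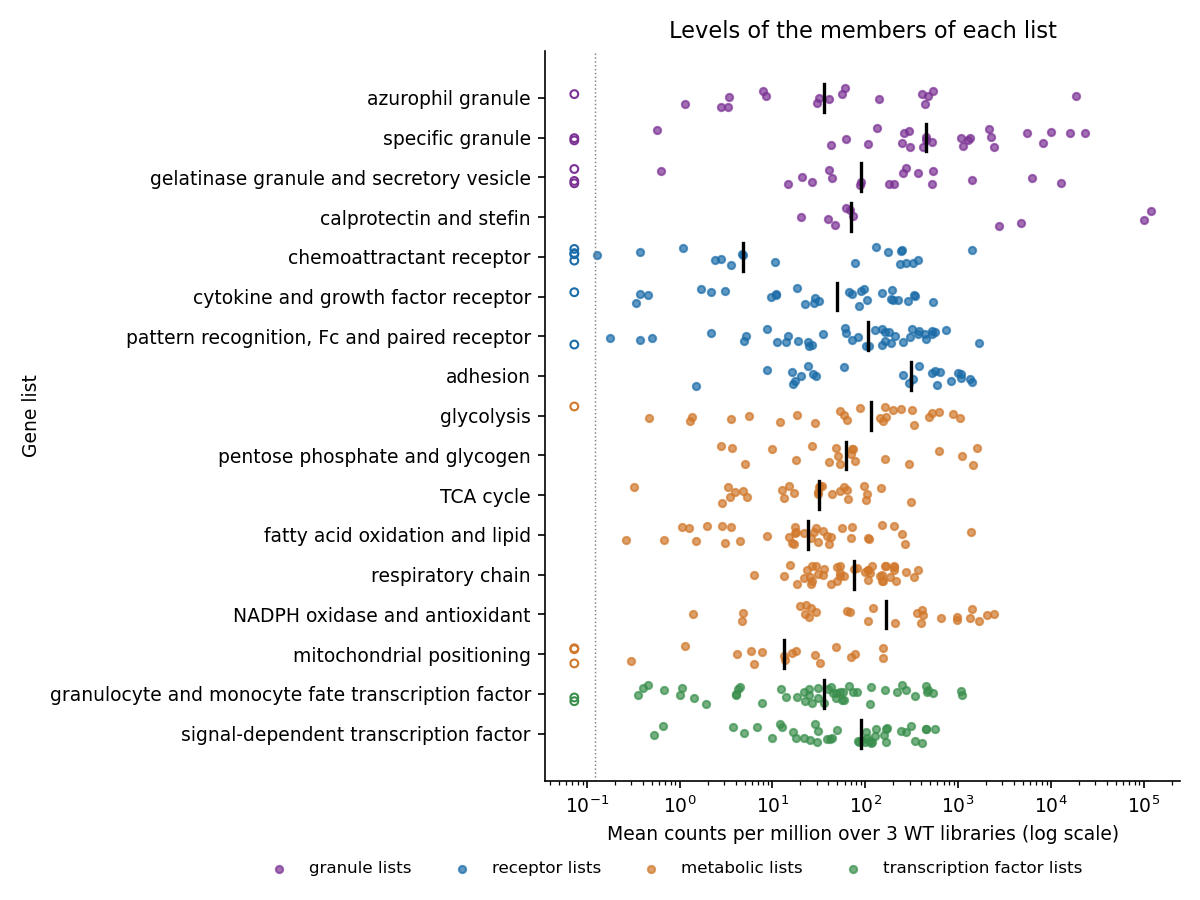
Level in CPM (horizontal axis, log scale) of each member of the granule, receptor, metabolic and transcription factor lists, 1 point per gene as the mean of the 3 WT libraries, with the median of each list as a black bar. Open circles at the left are genes below the floor of 3 counts (dotted line, 0.122 CPM). Specific granule genes reach the highest levels after the calprotectin genes, and the medians run from 4.87 CPM for chemoattractant receptors to 449 CPM for specific granules.

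The 197 metabolic genes held 3.48% ± 0.0498 of counts. At 1 CPM or more in all libraries were 183 of them (92.9%), against 19.2% of the table and 41.9% of protein-coding genes. The largest class was the NADPH oxidase and antioxidant list, which makes and contains the respiratory burst, with 13902, 14044 and 13662 CPM and all 26 members present. Behind Cybb came Rac2, the GTPase of the oxidase (2117, 2129 and 1953 CPM), Prdx5, a peroxiredoxin (1696, 1744 and 1640 CPM), and Ncf1, the organiser subunit p47phox (1499, 1423 and 1333 CPM). Cyba, the partner of Cybb in the membrane, had 420 ± 28.8 CPM and Ncf4, a cytosolic subunit, 408 ± 34.8 CPM; both were named after their values were seen. Cybb was 5.78 ± 0.393 times Cyba in tags, and per exonic length their ranks were 98 and 102.

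Glycolysis and the pentose phosphate and glycogen list were close, at 5639 ± 214 and 5791 ± 84.0 CPM. The glycolytic genes were led by Pkm, pyruvate kinase (1094, 1100 and 995 CPM), Gpi1, glucose phosphate isomerase (934, 915 and 808 CPM), Aldoa, aldolase (624 ± 13 CPM), and the glucose transporter Slc2a3 (521 ± 27.2 CPM). Pklr, the liver and red cell pyruvate kinase, had 2 counts. Hexokinases stood at 198 ± 6.78 CPM for Hk2, 166 ± 43.0 for Hk3 and 87.0 ± 5.06 for Hk1, and Ldha exceeded Ldhb 89.8 ± 4.48-fold (321 ± 19.5 against 3.58 ± 0.0396 CPM). Gapdh, which has many processed pseudogenes, had 168, 199 and 127 CPM, so its counts are uncertain. The hexokinases, lactate dehydrogenases and Gapdh were named after their values were seen.

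In the pentose phosphate and glycogen list all 20 genes were present. Taldo1, transaldolase, had 1587, 1587 and 1581 CPM, Pygl, glycogen phosphorylase, 1419, 1478 and 1491 CPM, and Pgd, which forms NADPH, 1117, 1165 and 1026 CPM. Tkt, transketolase, had 626 ± 24.5 CPM.

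The nuclear genes of the respiratory chain (43 of 43) summed to 4440 ± 33.5 CPM, and no member was among the 100 most abundant genes. Cox8a (371 ± 16.2 CPM), Atp5l (336 ± 1.17), Cox4i1 (276 ± 26.9) and Atp5h (215 ± 7.24) led the list. Genes of the tricarboxylic acid cycle (24 of 26) summed to 1310, 1272 and 1303 CPM, below glycolysis in every library, with Mdh2, malate dehydrogenase, at 315 ± 14.5 CPM and Dlst at 148 ± 4.88 CPM. Sums of lists depend on the number of genes: the median member stood at 115 CPM in glycolysis, 75.6 in the respiratory chain, 62.3 in the pentose phosphate and glycogen list and 31.4 in the cycle.

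Lipid genes (32 of 36) were led by the leukotriene pathway, with Alox5ap, the activator of 5-lipoxygenase, at 1408, 1400 and 1345 CPM, Alox5 itself at 271 ± 18.1 CPM and Lta4h, which completes leukotriene B4, at 203 ± 18.2 CPM. Acsl1, which activates fatty acids, had 249 ± 18.2 CPM. Genes that position and shape mitochondria (16 of 20) summed to 656 ± 36.4 CPM, with the kinesin Kif5b at 157 ± 2.39 CPM and the fission factors Fis1 and Mff at 156 ± 17.2 and 77.8 ± 4.33 CPM. Pink1, a kinase that marks damaged mitochondria, had 69.6 ± 3.10 CPM. Snph had no count in any of the 3 libraries, Ppargc1a, a driver of mitochondrial biogenesis, had none, and Kif5a had 1.

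The transcription factor lists held the smallest share of these groups. Their median member stood at 44.7 CPM, close to the 48.3 CPM of metabolic genes. They also hold regulators that are not transcription factors, such as Nfkbia and Zfp36. The 93 genes held 1.19% ± 0.0630 of counts. In all libraries 82 (88.2%) were at 1 CPM or more, against 19.2% of the table and 41.9% of protein-coding genes. Among the 100 most abundant genes were 2 of the 93. These were Mxd1, a MAX partner that opposes MYC, with 1055, 1076 and 1164 CPM (rank 75), and Klf2, with 1308, 1028 and 932 CPM (rank 78). Their ranges overlapped, and per exonic length they ranked 266 and 67. Spi1, which encodes PU.1, had 587, 544 and 499 CPM (rank 177), Max 449, 490 and 502 CPM and Cebpd 464, 438 and 500 CPM. Myc had 4, 4 and 2 counts (0.402 ± 0.111 CPM), while Gata3 had none and Tcf7, a T cell factor, had 1. Cebpd and Myc were named after their values were seen.

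The C/EBP family, named after its values were seen, was uneven. Cebpe, which drives specific granule genes, had 169, 153 and 164 CPM, 7.55 ± 1.06 times Cebpa, the factor of early granulocyte commitment, at 25.8, 17.7 and 21.9 CPM. Cebpb, the factor of emergency granulopoiesis, had 70.6, 96.6 and 174 CPM. Gfi1, a repressor needed for granulocyte development, had 12.3 ± 1.17 CPM, and Irf8, which favours monocytes, had 36.2 ± 2.62 CPM, both likewise named afterwards.

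Signal-dependent factors, the genes that cells induce on stimulation, were all detected and 40 of 42 reached 1 CPM in all libraries. Nfkbia, the inhibitor of NF-κB, had 513, 496 and 684 CPM, Zfp36l2 395, 437 and 518 CPM, Zfp36, which destabilises cytokine messages, 408, 377 and 564 CPM and Stat3 423, 410 and 398 CPM. Fos, named after its values were seen, had 246, 272 and 426 CPM. The list summed to 4980, 4972 and 5918 CPM. WT 3 was the highest library in 30 of the 42 genes, against 42.3% of all genes of at least 1 CPM.

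Inflammatory mediators ranged from abundant secreted proteins to cytokines with no count, with a median of 11.3 CPM. At least 1 CPM in all libraries was reached by 24 of 38, against 19.2% of the table and 41.9% of protein-coding genes. Wfdc21, a whey acidic protein, had 3182, 3363 and 3297 CPM, Slpi 2557, 2623 and 2195 CPM, and the chemokine Ccl6 2142, 1849 and 2045 CPM. Dusp1, a phosphatase that turns off MAP kinases, had 624, 803 and 1316 CPM. Il1b (546 ± 61.9 CPM) and Cxcl2 (203 ± 63.4 CPM), named after their values were seen, were present. Il6, Il10, Il12a, Il12b, Csf2, Csf3 and Nos2 had no count and Cxcl3 had 1. Thus 7 of 38 mediators were at 0, against 65.0% of the table and 37.4% of protein-coding genes.

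Among survival genes Mcl1, on which the life of neutrophils depends, had 609, 634 and 645 CPM, whereas Bcl2, named after its values were seen, had 2.26 ± 0.284 CPM. Neutrophil nuclei are lobed and poor in A-type lamins. Sun2, a nuclear envelope protein, had 927 ± 15.0 CPM, Lbr, the lamin B receptor needed for lobulation, 637, 672 and 704 CPM, Lmnb1 328 ± 45.3 CPM and Lmna, also named after its values were seen, 4.91 ± 1.73 CPM. The 31 cytoskeleton genes summed to 76587 ± 1908 CPM and 29 were at 100 CPM or more.

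Some genes listed as typical of human neutrophils had no count. Of 36 such names, 32 were matched in the table, and the other 4 were not analysed here. At least 1 CPM in all libraries was reached by 22 of the 32 (68.8%), against 19.2% of the table and 41.9% of protein-coding genes. No count was found for Bpi, Mme, Alpl, Nos2, Arg1 and Ceacam3, 6 of 32 (65.0% of the table had none). Fpr2, Cd177, Il1b and Fcgr3 were the highest. Over all lists except the ribosomal proteins, 31 of 749 genes (4.14%) had no count, a smaller share than in the table or among protein-coding genes. Another 16 had 1 to 3 counts.

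Markers of other cell types held 1.03% ± 0.0498 of counts over 163 genes. Of these, 113 (69.3%) were at 1 CPM or more in all libraries, against 19.2% of the table and 41.9% of protein-coding genes. The monocyte list summed to 2818, 3015 and 2685 CPM, but Ly6c2 and Lgals3 (1120, 1216 and 1030 CPM), which neutrophils also express, made up most of it. Csf1r, the growth factor receptor of monocytes and macrophages, had 190 ± 12.3 CPM, and the defining markers Ccr2 and F13a1, named after their values were seen, had 2.39 ± 0.559 and 2.37 ± 0.729 CPM.

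The macrophage list summed to 1959, 1862 and 2038 CPM over 15 genes, with 14 at 1 CPM or more in all libraries. It held the adhesion molecule Vcam1 (365, 351 and 418 CPM), the iron exporter Slc40a1 (286, 293 and 324 CPM), Apoe (283 ± 15.3 CPM) and Axl (154 ± 5.49 CPM). The complement genes C1qb, C1qc and C1qa had 148 ± 7.36, 144 ± 5.62 and 137 ± 10.7 CPM, and Cd5l, a secreted protein of tissue macrophages, had 109, 109 and 106 CPM, all 4 named after their values were seen. The part of macrophage RNA in the levels of other genes was not tested.

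Erythroid genes summed to 1363, 2193 and 2199 CPM. Hba-a2, haemoglobin alpha, had 706, 1127 and 1066 CPM, and Hbb-bs had 310, 515 and 489 CPM. WT 1 was the lowest for Hba-a2, Hbb-bs, Hba-a1 and Hbb-bt. Proliferating precursor genes summed to 1448, 1343 and 1454 CPM, of which Hmgb2 (598 ± 6.60 CPM) and H2afz (444 ± 20.3 CPM) held most. Basophil and mast cell genes summed to 680 ± 83.0 CPM, of which Hdc, the histamine-forming enzyme, held 97.6%; Prss34 had 7.04 ± 3.67 CPM, Mcpt8 5.13 ± 3.03 CPM and Cma1 and Tpsb2 no count. The megakaryocyte list (528 ± 33.2 CPM) was led by Gp1bb, whose exons overlap Sept5, at 245 ± 10.4 CPM.

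Plasma cell genes summed to 339 ± 26.5 CPM, with the immunoglobulin genes Igkc at 142 ± 18.4 and Igha at 130 ± 18.9 CPM. Eosinophil genes summed to 174 ± 17.3 CPM (Ear2 118 ± 8.0 CPM, the peroxidase Epx, named after its values were seen, 0.869 ± 0.731 CPM), MHC class II and dendritic cell genes to 165 ± 30.4 CPM and B cell genes to 126 ± 9.44 CPM. Stroma and endothelium genes came to 42.6, 70.9 and 68.1 CPM, T and NK cell genes to 49.97 ± 3.76 CPM with Cd3d at 32.3 ± 2.27 CPM and Cd3e at 0, and stem and progenitor genes to 29.8 ± 4.41 CPM. Xist had 176, 178 and 179 CPM, while the Y-linked genes Ddx3y, Eif2s3y and Uty had no count and Kdm5d had 2. The part of these cells in the levels of neutrophil genes was not tested.

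**Figure D4:**
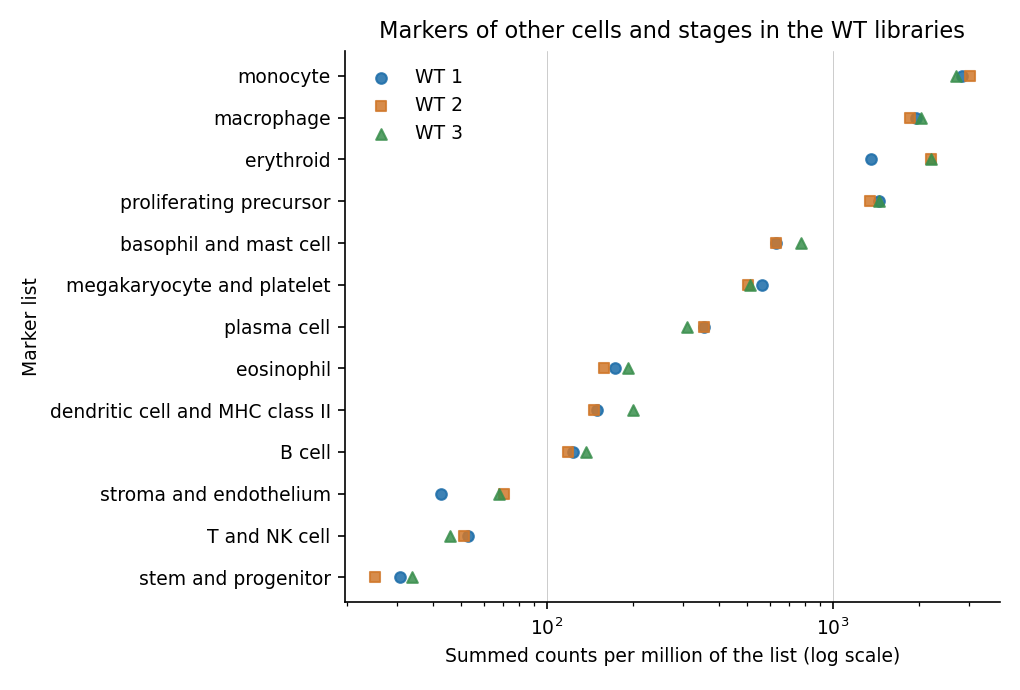
Summed level in CPM (horizontal axis, log scale) of the markers of other cell types, 1 marker per WT library. Monocyte, macrophage, erythroid and proliferating precursor lists lie above 1000 CPM in every library, and the erythroid points spread the most of these 4, from 1363 to 2199 CPM.

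The libraries were close to each other but not within counting error. The common biological coefficient of variation was 11.3% over 9627 genes (edgeR, common dispersion 0.0128), and no pair of libraries agreed within sampling noise, with a chi-square per degree of freedom of 4.12 to 6.79. The coefficient of variation between libraries fell with abundance, from a median of 26.4% (19.4% from counting alone) at 1 to 10 CPM, to 9.88% (6.74%) at 10 to 100 CPM, 5.61% (2.63%) at 100 to 1000 CPM and 4.81% (0.892%) above. The order of genes that differ by less than this spread is uncertain with 3 libraries.

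The genes of at least 50 CPM that varied most beyond counting were Hist1h2ap, Actb, S100a8, Dusp1, Camp, Tmsb4x, B2m, S100a6, Hba-a2, Anxa1, H2-K1 and H2-D1. Hist1h2ap had 751, 314 and 0 CPM, and its mean of 355 CPM became 157 CPM without WT 1. Anxa1, annexin A1, had 787, 1076 and 1257 CPM. The antigen presentation genes B2m (2014, 1803 and 2652 CPM), H2-K1 (511, 456 and 781 CPM) and H2-D1 (1771, 1810 and 2309 CPM) were each highest in WT 3. WT 3 was the highest library in 7 of the 12 and the lowest in 4. Among all 2459 genes of at least 50 CPM it was the library farthest from the middle value in 1068 (43.4%), against 709 (28.8%) for WT 1 and 682 (27.7%) for WT 2.

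**Figure D5:**
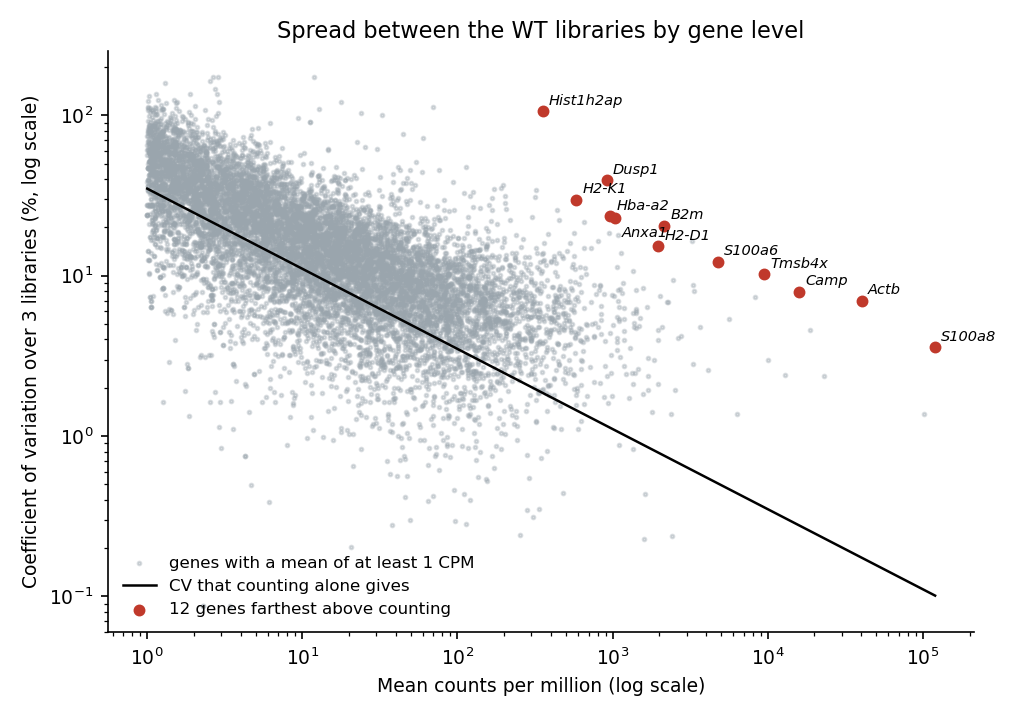
Coefficient of variation between the 3 WT libraries (vertical axis, percent, log scale) against mean level in CPM (horizontal axis, log scale), 1 point per gene with a mean of at least 1 CPM, with the value that counting alone gives as a line. The 12 genes that vary most beyond counting are labelled, and Hist1h2ap and Dusp1 lie at 106% and 39.3%.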

How the data were processed

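The authors deposited 1 table of unscaled integer counts, with Ensembl genes as rows. The submitters' processing notes list RSEM 1.2.3, DESeq2 and build mm10 without saying how each was used; for aligner, annotation release and strand setting, nothing is given in the sources used here. Columns were assigned by name. CPM was computed as count divided by the library's total; totals ran from 7018388 to 9664381. Names, coordinates and exonic lengths came from GENCODE vM21 (GRCm38): 51596 identifiers were matched, and 193 unmatched ones took 0.00815% of counts. Mitochondrially encoded genes were not analysed here. Dispersion was estimated with edgeR 4.0.16 in R 4.3.3 (TMM factors, filterByExpr, intercept only), checked on simulated data. The members and the 40 lists were chosen with earlier results of these data known. Named were the 25 most abundant genes, the markers, the 4 highest members of each list and up to 6 with at most 3 counts, and the 12 genes of at least 50 CPM that varied most beyond counting; others are stated as chosen later, and 2 list members are not reported here. No comparison between groups was made. Multicopy families (stefins, haemoglobins, histones, Ly6, MHC class I, Fpr, Ear) and overlapping genes have uncertain counts: exons of 216 of 749 list members overlap another gene, among them Fpr2, Itgam, Pkm, Aldoa, Ncf1, Stat3 and Dusp1. Alternatives were other scaling factors, pooled counts, filters, thresholds, division by length, other totals and leaving out each library.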

Additional observations from a re-analysis of the deposited data

How the results depend on the processing

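Dividing by exonic length raised the share of the first gene to 27.0%, of the first 10 genes to 66.2%, of the first 100 to 78.8% and of the first 1000 to 91.9%. It lowered the number of genes for 50% of the total to 2. The gelatinase and secretory vesicle sum became 35621 CPM and the macrophage sum 1003 CPM. With S100a8 and S100a9 left out of the total, the shares were 5.20%, 19.4%, 37.8% and 70.7%, 273 genes made up 50%, and the azurophil, specific, gelatinase and macrophage sums became 26870, 100027, 30047 and 2510 CPM. Without ribosomal protein, haemoglobin and immunoglobulin genes the first 10 and 100 genes held 37.0% and 52.6%, 74 genes made up 50%, and the specific and gelatinase sums were 79876 and 23990 CPM. Among single genes and lists, division by length moved 147 of 161 genes and 37 of 40 lists by more than 1 SD between libraries, leaving out S100a8 and S100a9 moved 142 of 159 and 40 of 40, and leaving out ribosomal protein, haemoglobin and immunoglobulin genes moved 19 of 149 and 19 of 39. The filterByExpr filter moved 3 of 155 and 2 of 40. TMM factors, DESeq2 size factors and pooled counts moved 0 of 161 and 0 of 40. These settings only reweight the same 3 libraries around their mean, so they could hardly move a mean by 1 SD. Leaving out 1 library of 3 cannot move a mean by 1 SD, so fold changes were taken: of the 161 genes, Hist1h2ap (355 CPM; 157 without WT 1) and Nkg7 (3.38 CPM; 2.16 without WT 1) moved by over 1.5 times, and no list moved by more than 1.15 times. The common biological coefficient of variation was 9.24% to 12.8% when 1 library was left out, the lowest without WT 3. Depth limits low genes: 1 count was 0.103 to 0.142 CPM. No paired analysis was possible because replicate numbers could pair samples only across groups, and 1 group was described.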

Other observations

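Some near-identical genes, chosen after their values were seen, went opposite ways between libraries. Pira2, a paired immunoglobulin-like receptor, had 245, 214 and 115 CPM and the gene model Gm15922 had 0, 55.2 and 155 CPM, while their sum was 245, 270 and 270 CPM. Hist1h2ap (751, 314 and 0 CPM) and its near copy Hist1h2ao (248, 293 and 322 CPM) did not add up to a level sum, at 999, 607 and 322 CPM.

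Of 578 pairs of a pseudogene and the gene it is named for, 8 had more counts on the pseudogene, and 20 pseudogenes reached at least 10 CPM. The pairs given here were chosen after their values were seen. Rpl10-ps3 had 329 CPM against 6.78 CPM for Rpl10, a protein of the large ribosomal subunit. Gpx4-ps2 had 123 CPM against 22.9 CPM for Gpx4, which reduces lipid peroxides, and Scp2-ps2 had 233 CPM against 108 CPM for Scp2. Rps23-ps1 had 287 CPM against 189 CPM for Rps23. The levels of these parent genes in the table are therefore uncertain.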
